A study of Rattus norvegicus with 12 samples.

Results

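Axon guidance ligands and receptors were followed in rat dorsal root ganglia over the first hours after the sciatic nerve had been cut. The members are all genes whose name on the array belongs to the semaphorins of classes 3 to 7, the plexins, the neuropilins Nrp1 and Nrp2, the ephrins, the Eph receptors, the netrins and netrin-G genes, Dcc, the Unc5 genes, Slit1 to Slit3 or Robo1 to Robo4, with 1 probe per gene, the one with the highest mean signal. By this rule 66 of 35287 gene names were members, with 96 probes, and 62 of them could be tested among 29627 genes. Of the 62, 47 were well above background on all 12 arrays. Unc50 met the name rule but encodes a membrane protein that is not a netrin receptor, and it is kept in the counts only because the rule takes it.

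The ganglia (L4 to L6) came from male Sprague-Dawley rats in which a segment of the left sciatic nerve had been resected at mid-thigh, 0.5, 3, 6 or 9 h before. There were 24 rats per the labels, 6 for each time, and each time has 3 arrays. The labels name no genotype or drug difference and no uninjured group, so every comparison is between times after injury, and all groups share the surgery and an anaesthetic mixture of trichloroacetaldehyde monohydrate, magnesium sulfate and sodium pentobarbital. Which rats' RNA went onto which array is not stated, so the p-values reflect only how far these arrays varied, which may be technical in part.

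Guidance molecules steer growing axons by attraction or repulsion, and many persist in adult sensory ganglia. Secreted and membrane-bound semaphorins signal through plexins, with neuropilins as co-receptors for most class 3 semaphorins. Ephrins and Eph receptors signal between touching cells and in both directions, netrins act through Dcc and Unc5 receptors, and Slits act through Robo receptors. In injured nerve, several of these systems are known to shape axon regrowth, glial arrangement and vessel growth.

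The identity of the tissue was checked with neuronal markers, and 11 of the 12 neuronal genes listed were tested and were well above background on every array. Their mean level, each gene centred over the arrays, lay between -0.13 and 0.09 on the log2 scale. All 12 skeletal muscle markers listed were also well above background on every array, but their mean level ran from -1.51 to 2.06. It varied within a time, with -1.03, 2.06 and 0.16 on the 6 h arrays. The mean of the 5 fat markers tested was 1.314, 1.169 and -1.797 at 3 h. The signal of muscle and fat markers thus differed between arrays of 1 time. Whether it came from tissue carried over, and its part in any result, was not tested. The 0.5 h arrays stood apart in what they could detect: on the 9 later arrays 82.9 to 85.9% of spots were well above background, while at 0.5 h the share was 64.1 to 68.3%. Local background, as its median per array, was at 37 to 45 intensity units on the later arrays, against 64 to 86 at 0.5 h. All arrays of 0.5, 3 and 9 h lay on a slide of their own for each time, and those of 6 h on a further pair that held no other time. Slide and time can thus be told apart in no comparison. Across the 12 arrays, whose number limits the precision, the signal had its 75th percentile at 1814 to 2152.

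A level is the log2 signal minus the log2 of the array's 75th percentile, so that 0 is that percentile. A level belongs to its own probe and says nothing of which gene has more transcript. Differences are the later time minus the earlier one on the log2 scale, with the standard error (SE) of the limma fit, and a difference was called at an adjusted p under 0.05. In whole ganglia, fewer cells of a type and less RNA per cell cannot be told apart. The comparisons share arrays: the 0.5 h arrays stand in 3 of the 5, and the 3 h and 6 h arrays in several.

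The probes are shown because their base composition moved with the differences. The first 30 bases of 10 of the 60-base probes are given, 5′ to 3′ as in the scanner files, with every G and C in capitals. The first 4 are the A- and T-rich probes of members that fell at 3 h, Slit2 and Sema7a have intermediate shares or an early peak, and the last 4 are G- and C-rich probes of members that changed at 9 h.
Efnb1: ataCtaGtCttttttGGaaGaaataatGta
Ephb1: CttttGtaaattCCaCCtaaCatttaaata
Sema6d: GtGaGttCtatCaGtatttatGttGaaatt
Ntng1: CaCtGGaaGaCttaaaGaataaaatttCCt
Slit2: GaaataCtCtttCGaatGCaCaGatGGatC
Sema7a: tGGtGaCattGaCaGaGtCttCCGtaCCtC
Epha10: aGCtCaGtGaCtGCaGGaataCtGGGGtaG
Robo4: aCCCCCaGCaaCCtatGGCtatatCaGCat
Sema6b: GGGGttttGGGaGGGtGGaaGtGGGCaGaC
Ntn2l: aaGCCCaCGCttGCCttGCttGCtCCtGCa

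On the rn4 assembly, as the files give it, the Efnb1 probe lies at chrX:87175866-87175925 on the plus strand, the Ephb1 probe at chr8:106871911-106871970 (minus), the Sema6d probe at chr3:111948097-111948156 (plus) and the Ntng1 probe at chr2:205439645-205439704 (minus). The Slit2 probe lies at chr14:67548352-67548411 (minus), the Sema7a probe at chr8:61734701-61734760 (plus), the Epha10 probe at chr5:144249800-144249859 (plus) and the Robo4 probe at chr8:38664659-38664718 (plus). The Sema6b probe is on sequence not assigned to a chromosome, and the Ntn2l probe spans chr10:13459167-13459297 (minus), 131 bases of genome for 60 bases of probe. Of the 62 probes in use, 18 span more of the genome than their own length. Which exon or untranslated region each probe matches was not analysed here.

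G and C made up 21.7% of the Efnb1 probe, the lowest share among the members, 25% of the Ephb1 probe, 30% of the Sema6d probe and 35% of the Ntng1 probe. The share was 60% for Ntn2l and Sema6b, the highest. Across the 62 members, the share and the difference had Pearson's r = 0.34 for 3 h versus 0.5 h, 0.12 for 6 h versus 0.5 h, 0.44 for 9 h versus 0.5 h, -0.38 for 6 h versus 3 h and 0.42 for 9 h versus 6 h. Across all 29627 genes the same r was 0.21, 0.02, 0.30, -0.22 and 0.24 in that order. These are descriptions across probes of the same arrays, and genes are not independent replicates. The part of base composition in any result was not tested. As an alternative chosen after seeing this, each array was centred within bins of probes with a like G and C count (at least 200 probes per bin), and its values are given beside the calls it ended, turned or moved by over 1.5 times.

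**Figure D1:**
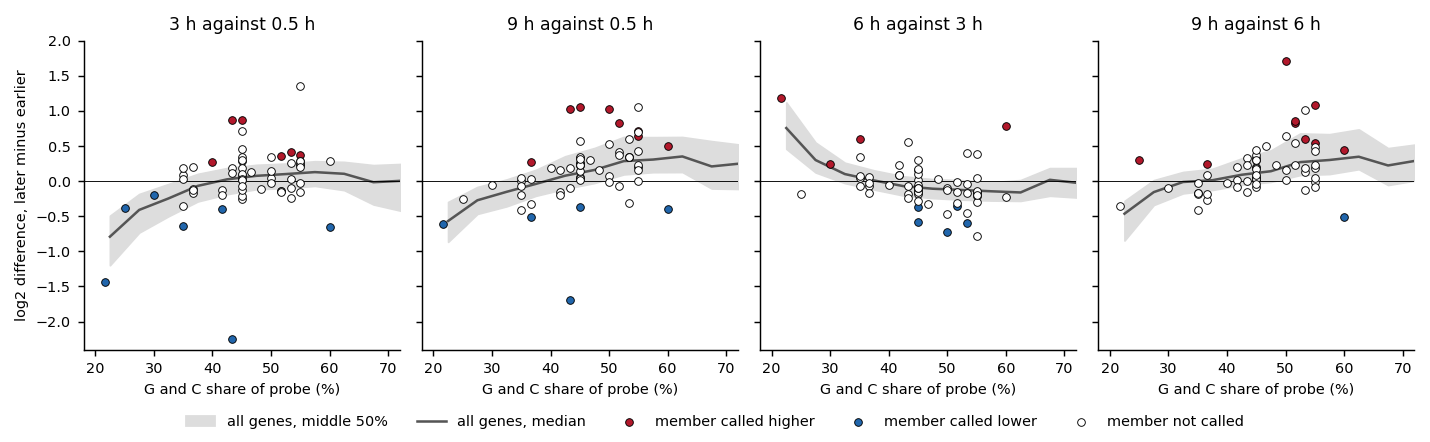
G and C share of the probe (x, percent) against the log2 difference (y, later minus earlier) for the members (points) in 4 comparisons, with the median and middle 50% of all genes in steps of 5% (line and band). Members called higher at 9 h lie mostly to the right, and Efnb1, the leftmost point at 21.7%, is at -1.44 for 3 h versus 0.5 h and at 1.18 for 6 h versus 3 h, beside a line that bends the same way at low shares.

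At least 1 of the 5 comparisons called 26 of the 62 members, in 51 calls, and none of the 5 called the other 36. Any difference over the 4 times was called for 24 members (38.7%) by the moderated F test, against 43.6% of all genes, and 1 of the 24, Ephb3, was called in none of the 5 comparisons. At 3 h versus 0.5 h, 6 members were higher and 7 lower, 9.68% and 11.3% of the members, beside 9.68% and 13% of all genes. At 6 h versus 0.5 h, 1 was higher and 2 lower, beside 4.07% and 9.32% of all genes. At 9 h versus 0.5 h, 10 were higher and 5 lower, beside 22.7% and 10.7% of all genes. For 6 h versus 3 h there were 4 higher and 5 lower, beside 5.93% and 4.46% of all genes, and for 9 h versus 6 h 10 higher and 1 lower, beside 19.2% and 5.93%. In each comparison the members' shares lay near or below those of all genes, except for more lower calls at 6 h versus 3 h, 8.06% of the members, and none of these gaps was tested.

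The members' median difference was 0.04 at 3 h, -0.00 at 6 h and 0.18 at 9 h versus 0.5 h, beside 0.02, -0.04 and 0.10 for all genes. For 6 h versus 3 h it was -0.10, beside -0.07, and for 9 h versus 6 h 0.17, beside 0.11. The split of calls depended on the scaling. When each array was scaled to its median, which put the median of all genes at -0.10 for 9 h versus 6 h in place of 0.11, 5 members were higher and 10 lower in that comparison. With the same scaling there were 7 higher and 10 lower for 9 h versus 0.5 h, 12 and 5 for 3 h versus 0.5 h, 5 and 2 for 6 h versus 0.5 h, and 4 and 3 for 6 h versus 3 h. Centring by G and C count gave 5 higher and 6 lower for 9 h versus 6 h, and 7 and 6 for 9 h versus 0.5 h. It also began calls: Sema3d at 3 h, Efna1 and Epha1 at 6 h, and Sema3b and Sema7a at 9 h, each versus 0.5 h. Others begun were Ephb1 and Ephb3 at 6 h versus 3 h, and Efna1, Epha5, Sema3f, Sema7a and Unc50 at 9 h versus 6 h. Quantile scaling gave 11 higher and 7 lower for 3 h versus 0.5 h, 4 and 2 for 6 h versus 0.5 h, 4 and 3 for 6 h versus 3 h, and 7 and 5 for 9 h versus 6 h. Cyclic loess gave 12 and 7, 6 and 3, 4 and 2, and 7 and 2 for the same comparisons. Of all genes called at 9 h versus 6 h, 76.4% were higher as reported and 37% with median scaling. The share was 47% with quantile scaling, 55.4% with cyclic loess and 52.3% with G and C centring. Under normexp background correction of the mean spot and local background signals, 42 of the 51 calls ended and 5 turned.

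**Figure D2:**
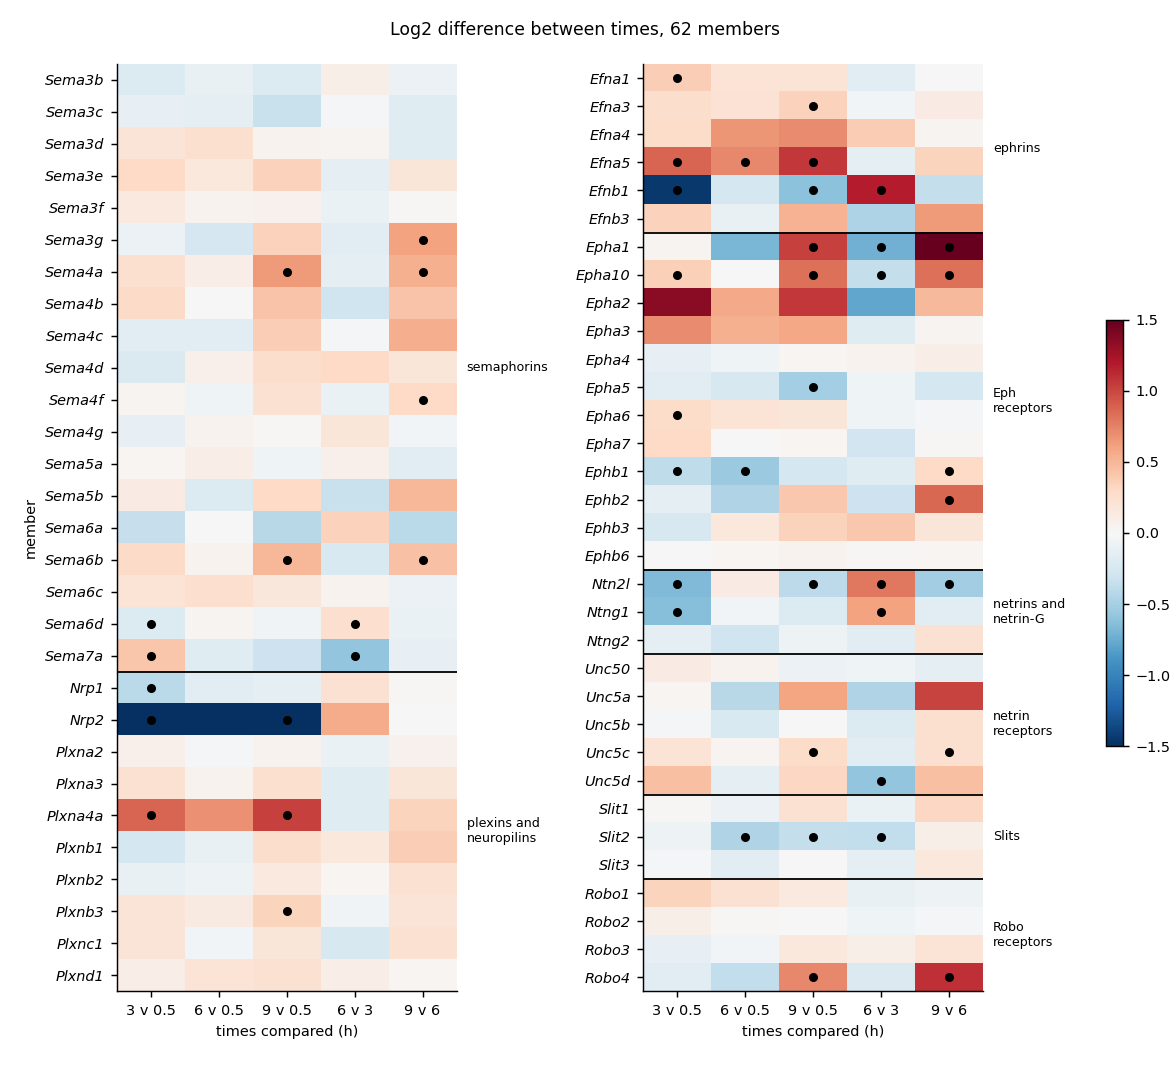
Log2 difference (colour, later minus earlier, limited at ±1.5) of the 62 members (rows, by family) in the 5 comparisons (columns, times in hours), with a black dot where limma called it. Dots are scattered over all families, and the column of 9 against 6 h holds 10 red cells with a dot and 1 blue one, Ntn2l.

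Among ligands, 3 of 31 were higher and 4 lower at 3 h versus 0.5 h, and 4 higher and 3 lower at 9 h versus 0.5 h. Of the 30 receptors (Unc50 left out), 3 were higher and 3 lower at 3 h, and 6 higher and 2 lower at 9 h, both against 0.5 h. At 9 h versus 6 h, 4 ligands and 6 receptors were higher and 1 ligand was lower. In both directions together, 22.6% of ligands and 20% of receptors were called at 3 h versus 0.5 h, beside 22.7% of all genes. The shares were 22.6% and 26.7% at 9 h versus 0.5 h, beside 33.4%, and 16.1% and 20% at 9 h versus 6 h, beside 25.1%. No gap between these shares was tested.

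The ephrins held the member with the smallest F p, Efnb1. It encodes ephrin-B1, a transmembrane ligand of EphB receptors that also signals into the cell that carries it. Its level was -1.03, -0.76 and -0.55 at 0.5 h, -2.25, -2.07 and -2.35 at 3 h, -1.23, -0.97 and -0.92 at 6 h, and -1.33, -1.42 and -1.43 at 9 h. All 3 h arrays lay below every other array, and the 9 h arrays lay below those of 0.5 and 6 h. Efnb1 fell by 1.44 at 3 h versus 0.5 h (SE 0.13, limma adjusted p = 7.68e-05), which is 0.368 times the level at 0.5 h. It rose 2.27-fold at 6 h versus 3 h (log2 1.18, SE 0.13, adjusted p = 0.000332), and it was lower at 9 h than at 0.5 h (log2 -0.61, adjusted p = 0.00568). Its probe has the lowest G and C share of all members, and the median difference of all genes with probes of 20 to 25% was -0.79 at 3 h versus 0.5 h. Centred by G and C count, Efnb1 still fell at 3 h, by 0.58 (SE 0.11, adjusted p = 0.0069), while the differences of 6 h versus 3 h (0.38, adjusted p = 0.074) and of 9 h versus 0.5 h (-0.02, adjusted p = 0.919) were not called. Centring within each single G and C count, tried before the bins, gave 0.43 for 6 h versus 3 h (adjusted p = 0.0312).

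Ephrin-A ligands are held to the membrane by a lipid anchor and bind EphA receptors. Efna5 was at -6.05, -6.20 and -5.89 at 0.5 h, -4.91, -5.14 and -5.47 at 3 h, -5.57, -5.20 and -5.21 at 6 h, and -5.11, -4.97 and -4.88 at 9 h. Every later array lay above every 0.5 h array. It was called higher at 3 h (adjusted p = 0.00374), 6 h (0.0155) and 9 h (0.000979) against 0.5 h, but no 0.5 h array had it well above background and the lower bound of the fold was under 1, so no fold is given. Without 0.5 h replicate 2 or 6 h replicate 2 or 3 the call at 6 h ended (adjusted p = 0.0521 to 0.0569). Efna1 was at -2.35, -2.22 and -2.16 at 0.5 h, -1.89, -1.94 and -1.81 at 3 h, -1.96, -2.02 and -2.13 at 6 h, and -2.04, -2.05 and -2.05 at 9 h. It rose 1.29-fold at 3 h versus 0.5 h (log2 0.37, SE 0.07, adjusted p = 0.00515), with no overlap of the arrays.

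Efna3 was 1.27-fold higher at 9 h than at 0.5 h (log2 0.34, SE 0.09, adjusted p = 0.0151). Leaving out 0.5 h replicate 3 ended this call (adjusted p = 0.054), as did G and C centring (log2 0.052, adjusted p = 0.685). Efna4 and Efnb3 were not called in any comparison, and no 0.5 h array had either of them above background. Efnb2 was not well above background on all arrays of any time. Of the 6 ephrins tested, 2 rose and 1 fell at 3 h, 1 rose at 6 h, and 2 rose and 1 fell at 9 h, each against 0.5 h. In both directions together these were 50%, 16.7% and 50%, beside 22.7%, 13.4% and 33.4% of all genes. The gaps, over only 6 genes, were not tested.

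Of 12 Eph receptors tested, 2 were higher and 1 lower at 3 h versus 0.5 h, 1 was lower at 6 h, and 2 were higher and 1 lower at 9 h. In both directions together these were 25%, 8.33% and 25%, beside 22.7%, 13.4% and 33.4% of all genes. At 9 h versus 6 h 4 were higher, 33.3% beside 19.2% of all genes, and no such gap was tested. Epha10 encodes a receptor whose kinase domain is held to be inactive. Its level was -3.37, -3.27 and -3.22 at 0.5 h, -2.82, -3.08 and -2.88 at 3 h, -3.20, -3.26 and -3.39 at 6 h, and -2.55, -2.50 and -2.33 at 9 h. The 9 h arrays lay above all others and the 3 h arrays above those of 0.5 and 6 h. Epha10 was 1.77-fold higher at 9 h than at 0.5 h (log2 0.82, SE 0.09, adjusted p = 0.00025) and 1.77-fold higher than at 6 h (log2 0.82, SE 0.09, adjusted p = 0.000133). Centred by G and C count these differences were 0.57 (adjusted p = 0.000515) and 0.54 (adjusted p = 0.000476). It was 1.28-fold higher at 3 h than at 0.5 h (log2 0.36, adjusted p = 0.0201) and lower at 6 h than at 3 h (log2 -0.36, adjusted p = 0.0359). The first of these calls ended without 0.5 h replicate 1 or 3 h replicate 1 or 3 (adjusted p = 0.059 to 0.0741). The other ended without 0.5 h replicate 2, 3 h replicate 1 or 3, 6 h replicate 2 or 3, or 9 h replicate 2 (0.0526 to 0.138), and with G and C centring (log2 -0.25, adjusted p = 0.0643).

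Epha1, which encodes a receptor of ephrin-A ligands, was well above background on no array at 0.5 h, on 1 at 3 h, on none at 6 h and on 3 at 9 h. The readings were -7.04, -7.34 and -6.92 at 0.5 h, -7.32, -7.12 and -6.74 at 3 h, -8.12, -7.49 and -7.73 at 6 h, and -6.26, -6.10 and -5.85 at 9 h. It was called higher at 9 h than at 6 h (adjusted p = 0.000181), with a bound of 2.53-fold. For such a bound, each array of the dimmer time was given a floor or the reading of the probe, whichever was larger. The floor was the lowest level of any probe well above background on that array, and not a limit of the Epha1 probe itself. The mean of these log2 levels was subtracted from that of the brighter time. With 1 common detection floor for all arrays the call ended. Epha1 was also called higher at 9 h than at 0.5 h (adjusted p = 0.00413), where the bound was under 1. The call of a lower level at 6 h than at 3 h (adjusted p = 0.0489) ended without any array except 6 h replicate 2 (0.0504 to 0.143) and with G and C centring (log2 -0.61, adjusted p = 0.08), and turned under normexp, to 0.72.

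Ephb1 and Ephb2 encode receptors of ephrin-B ligands. Ephb1 was at 0.42, 0.66 and 0.72 at 0.5 h, 0.33, 0.23 and 0.09 at 3 h, 0.01, -0.03 and 0.15 at 6 h, and 0.37, 0.35 and 0.29 at 9 h. All later arrays lay below the 0.5 h arrays, and those of 6 h below those of 9 h. It was 0.679 times its 0.5 h level at 6 h (log2 -0.56, SE 0.09, adjusted p = 0.00591), and -0.45 when centred by G and C count (adjusted p = 0.00679). At 3 h versus 0.5 h it was lower by the fit as measured (log2 -0.38, SE 0.09, adjusted p = 0.0168), but its probe holds 25% G and C and the centred value was 0.08 (adjusted p = 0.542). That call also ended without 0.5 h replicate 2 or 3 or 3 h replicate 3 (0.0547 to 0.0576). The rise at 9 h versus 6 h was small (log2 0.30, adjusted p = 0.0415) and the call ended without any 9 h array, 6 h replicate 1 or 2, 0.5 h replicate 2 or 3 h replicate 2 (0.0537 to 0.125), while centring by G and C count made it 0.48 (adjusted p = 0.00151).

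Ephb2 was at -3.51, -3.92 and -3.95 at 0.5 h, -4.01, -4.04 and -3.74 at 3 h, -4.44, -4.04 and -4.26 at 6 h, and -3.56, -3.33 and -3.26 at 9 h. The 9 h arrays lay above those of 3 and 6 h and overlapped with those of 0.5 h. Ephb2 was 1.82-fold higher at 9 h than at 6 h (log2 0.86, SE 0.15, adjusted p = 0.00205), a difference of 0.58 (adjusted p = 0.00967) after G and C centring. With the mean of all its kept probes in place of the brightest, it was 0.45 and not called (adjusted p = 0.0683).

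Epha5, a receptor of ephrin-A ligands known for its part in the mapping of axons, was at 0.05, 0.18 and 0.10 at 0.5 h, 0.09, 0.01 and -0.30 at 3 h, -0.10, -0.15 and -0.15 at 6 h, and -0.36, -0.41 and -0.43 at 9 h. The 9 h arrays were the lowest of the 12 and did not overlap with any others. Epha5 was 0.703 times its 0.5 h level at 9 h (log2 -0.51, SE 0.09, adjusted p = 0.00285). Epha6 was 1.21-fold higher at 3 h than at 0.5 h (log2 0.27, adjusted p = 0.0338). Leaving out 0.5 h replicate 1 or 3 or 3 h replicate 1 or 3 ended this call (0.0816 to 0.109).

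Ephb3, a further receptor of ephrin-B ligands, differed over the 4 times by the F test (adjusted p = 0.0467), with its highest mean at 9 h and its lowest at 3 h, a pair that was not compared. It was called in none of the 5 comparisons as measured, but higher at 6 h than at 3 h after G and C centring (log2 0.51, adjusted p = 0.0272). Epha2, Epha3, Epha4, Epha7 and Ephb6 were not called in any of the 5 comparisons or by the F test. Epha2 had wide readings at 3 h, -5.21, -6.73 and -3.61, and 1 of its 9 h spots was an outlier and left out of the fit. The Ephb6 probe, which had the highest mean signal of this family, was at 0.90 to 1.31 over the 12 arrays. The arrays of all 4 times overlapped for Ephb6, another receptor without kinase activity.

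**Figure D3:**
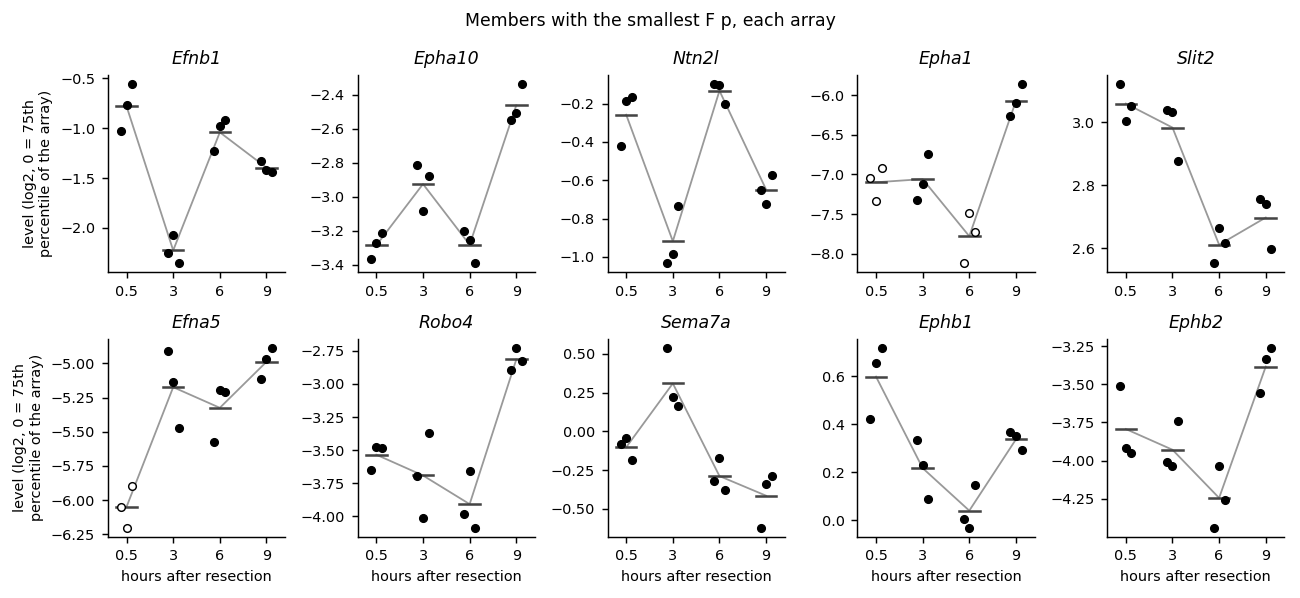
Level on each array (points, log2, 0 is the array's 75th percentile) at 0.5, 3, 6 and 9 h (x) for the 10 members with the smallest F p, with the mean of each time as a bar. Open points mark times at which no array was well above background, as for Epha1 at 0.5 and 6 h and Efna5 at 0.5 h, and Efnb1 and Ntn2l both show their lowest arrays at 3 h.

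Of the 3 netrin family genes tested, Ntn2l and Ntng1 fell at 3 h and were higher at 6 h than at 3 h, while Ntng2 was not called. Ntn2l, whose current symbol is Ntn3, encodes a secreted netrin. It was at -0.42, -0.18 and -0.17 at 0.5 h, -1.03, -0.99 and -0.74 at 3 h, -0.10, -0.10 and -0.20 at 6 h, and -0.65, -0.72 and -0.57 at 9 h. All 3 h and 9 h arrays lay below all those of 0.5 and 6 h. Ntn2l fell by 0.66 at 3 h versus 0.5 h (SE 0.10, adjusted p = 0.00139), 0.633 times the 0.5 h level, and it was 1.72-fold higher at 6 h than at 3 h (log2 0.79, SE 0.10, adjusted p = 0.000766). At 9 h it was 0.699 times its 6 h level (log2 -0.52, SE 0.10, adjusted p = 0.00311) and also below its 0.5 h level (log2 -0.39, adjusted p = 0.0126).

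Its probe is G- and C-rich, at 60%, so that centring by G and C count enlarged the later falls. Centred, the differences were -0.74 for 3 h versus 0.5 h (adjusted p = 0.000305), -0.72 for 9 h versus 0.5 h (0.00028), 0.92 for 6 h versus 3 h (9.47e-05) and -0.90 for 9 h versus 6 h (5.12e-05). Under normexp, the calls of Ntn2l and Efnb1 at 3 h versus 0.5 h and at 6 h versus 3 h were the 4 that were kept. The Ntn2l calls of 3 h versus 0.5 h and 6 h versus 3 h and the Efnb1 call of 3 h versus 0.5 h were the 3 kept under every alternative run.

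Ntng1 encodes netrin-G1, which is held to the membrane by a lipid anchor and binds a partner other than Dcc. It was at -3.48, -3.44 and -3.23 at 0.5 h, -4.05, -4.08 and -3.95 at 3 h, -3.26, -3.60 and -3.41 at 6 h, and -3.46, -3.86 and -3.44 at 9 h. The 3 h arrays were the lowest 3 of the 12. Ntng1 fell by 0.64 at 3 h versus 0.5 h (SE 0.13, adjusted p = 0.00691) and was 1.52-fold higher at 6 h than at 3 h (log2 0.60, SE 0.13, adjusted p = 0.0162). With the mean of all its kept probes the differences were -0.37 (adjusted p = 0.272) and 0.37 (adjusted p = 0.333), and the call at 6 h versus 3 h ended without 3 h replicate 1 or 6 h replicate 1 or 3 (0.0534 to 0.0609). Ntn1 and Dcc, the best known netrin and its receptor, were not well above background on all arrays of any time and are not given values.

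Unc5 receptors mediate repulsion by netrins. Unc5d was called lower at 6 h than at 3 h, with levels of -5.40, -5.64 and -5.50 at 6 h, against -4.79, -5.10 and -4.89 at 3 h. At 9 h it was at -4.83, -5.49 and -4.88, and at 0.5 h, where no array detected it above background, at -5.35, -5.45 and -5.34. The fall of 0.59 at 6 h versus 3 h (SE 0.16, adjusted p = 0.0456) was no longer called once any single array of 0.5 or 6 h, or 3 h replicate 1 or 3, was left out (0.0616 to 0.151), nor with G and C centring (log2 -0.50, adjusted p = 0.0787). Unc5c was 1.21-fold higher at 9 h than at 0.5 h (log2 0.28, SE 0.08, adjusted p = 0.0209) and 1.18-fold higher than at 6 h (log2 0.24, SE 0.08, adjusted p = 0.0475). The first call ended without 0.5 h replicate 1 or 3 or 9 h replicate 3 (0.0548 to 0.0737) and the second without any array except 3 h replicate 2 and 6 h replicate 1 (0.0516 to 0.158), as well as with G and C centring (log2 0.20, adjusted p = 0.105). Unc5a and Unc5b were not called, and Unc50 was called only with G and C centring, at 9 h versus 6 h (log2 -0.28, adjusted p = 0.0248).

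Slit2 was the 1 called member of the Slit family, which act as secreted repellents. Its level was 3.12, 3.00 and 3.05 at 0.5 h, 3.04, 3.03 and 2.88 at 3 h, 2.55, 2.66 and 2.62 at 6 h, and 2.76, 2.74 and 2.60 at 9 h. The 6 h and 9 h arrays all lay below those of 0.5 and 3 h. Slit2 was 0.733 times its 0.5 h level at 6 h (log2 -0.45, SE 0.07, adjusted p = 0.00492) and 0.778 times at 9 h (log2 -0.36, SE 0.07, adjusted p = 0.00404). Centred by G and C count these differences were -0.43 and -0.48 (adjusted p = 0.00801 and 0.0019). It was also lower at 6 h than at 3 h (log2 -0.37, SE 0.07, adjusted p = 0.00879), but -0.28 after centring (adjusted p = 0.0539). Slit1 and Slit3 were not called in any comparison.

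Robo4, an endothelial member of the Robo receptor family, was the 1 Robo gene called. It was at -3.65, -3.47 and -3.48 at 0.5 h, -3.69, -4.01 and -3.37 at 3 h, -3.98, -3.66 and -4.08 at 6 h, and -2.90, -2.73 and -2.83 at 9 h. Every 9 h array lay above the 9 others. Robo4 was 2.13-fold higher at 9 h than at 6 h (log2 1.09, SE 0.16, adjusted p = 0.000656) and 1.65-fold higher than at 0.5 h (log2 0.72, SE 0.16, adjusted p = 0.00736). After G and C centring the differences were 0.78 (adjusted p = 0.00105) and 0.43 (adjusted p = 0.025), the second moved by over 1.5 times.

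Endothelial markers also had their highest mean at 9 h, though most of them were not called. The mean of the 10 endothelial markers tested, each centred over the arrays, was 0.12, 0.40 and 0.27 at 9 h, against -0.26, -0.08 and -0.12 at 6 h. Of the 10, 3 were called higher and 0 lower (limma) at 9 h versus 6 h, and 4 higher and 0 lower at 9 h versus 0.5 h. Of all genes, 19.2% and 22.7% were called higher in these comparisons. Their summed signal, in units of the array's 75th percentile, was 17.4 to 19.4 at 9 h, against 15.9 to 17.4 at 6 h and 18.1 to 18.9 at 0.5 h. By this sum the 9 h arrays overlapped with those of 0.5 h. Their part in the result for Robo4 was not tested. Robo1, Robo2 and Robo3, the receptors of neurons, were not called. The Robo2 probe had the highest mean signal of the family and was at 2.53, 2.73 and 2.64 at 0.5 h, 2.75, 2.79 and 2.61 at 3 h, 2.75, 2.52 and 2.69 at 6 h, and 2.72, 2.59 and 2.59 at 9 h, with overlap between all times.

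**Figure D4:**
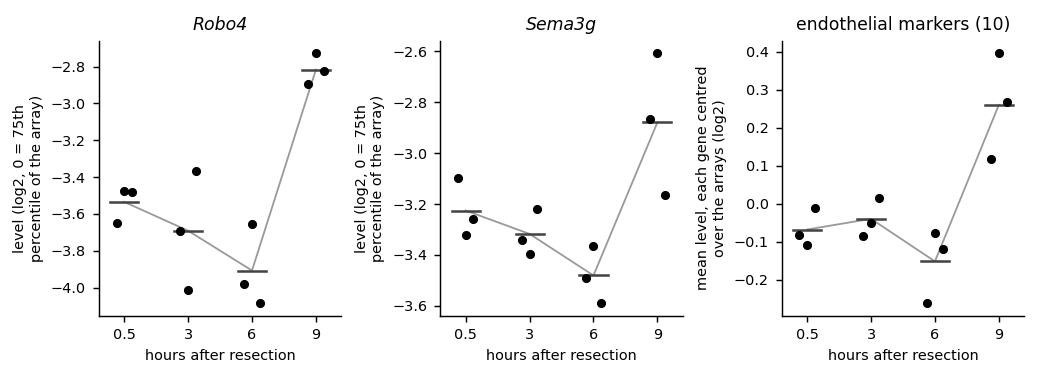
Level on each array (points, log2) at 0.5, 3, 6 and 9 h (x) for Robo4 and Sema3g, and the mean of 10 endothelial markers with each gene centred over the arrays, with the mean of each time as a bar. All 3 panels have their highest mean at 9 h and their lowest at 6 h, and the 9 h arrays overlap with 0.5 h arrays only for Sema3g.

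Of the 19 semaphorins, 1 was higher and 1 lower at 3 h versus 0.5 h, and 2 were higher at 9 h versus 0.5 h. In both directions together, 2 of the 19 were called at each of these times. This was a smaller share than the 22.7% and 33.4% of all genes. At 6 h versus 3 h 1 was higher and 1 lower, and at 9 h versus 6 h 4 were higher, 21.1% beside 19.2% of all genes. In both directions together these were 2 and 4 of the 19, beside 10.4% and 25.1% of all genes. No gap between these shares was tested. No semaphorin was called by limma at 6 h versus 0.5 h, beside 13.4% of all genes, and 1, Sema3d, had an unadjusted p under 0.05 there. Sema7a is held to the membrane by a lipid anchor and binds plexin-C1 and integrins. It was at -0.08, -0.04 and -0.18 at 0.5 h, 0.54, 0.22 and 0.17 at 3 h, -0.32, -0.17 and -0.38 at 6 h, and -0.62, -0.34 and -0.29 at 9 h. The 3 h arrays lay above all others. Sema7a was 1.33-fold higher at 3 h than at 0.5 h (log2 0.41, SE 0.12, adjusted p = 0.033) and 0.661 times its 3 h level at 6 h (log2 -0.60, SE 0.12, adjusted p = 0.0111). The rise ended as a call without any 0.5 h array or 3 h replicate 1 (0.0584 to 0.106) and after G and C centring (0.32, adjusted p = 0.0824), and the fall ended without 6 h replicate 3 (0.0521). Centring added calls of a lower level at 9 h, by -0.60 against 0.5 h (adjusted p = 0.00428) and by -0.44 against 6 h (adjusted p = 0.0192), where the fit as measured gave -0.31 and -0.13.

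Sema6d, a transmembrane ligand of plexin-A receptors, was at 2.08, 2.07 and 2.00 at 0.5 h, 1.93, 1.85 and 1.77 at 3 h, 2.08, 2.09 and 2.13 at 6 h, and 2.01, 1.98 and 2.01 at 9 h. The 3 h arrays were the lowest. It was lower at 3 h than at 0.5 h (log2 -0.20, SE 0.06, adjusted p = 0.0259) and higher at 6 h than at 3 h (log2 0.25, SE 0.06, adjusted p = 0.0196). The fall turned to 0.12 after G and C centring and to 0.05 with the mean of its probes, and the rise was 0.055 and not called after centring (adjusted p = 0.615) and turned to -0.05 with that mean. The first call ended without 0.5 h replicate 1 or 2 or 3 h replicate 2 or 3 (0.0555 to 0.0743), and the second without 3 h replicate 3 or 6 h replicate 2 or 3 (0.0546 to 0.0837).

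The 4 semaphorins higher at 9 h than at 6 h were Sema3g, Sema4a, Sema6b and Sema4f, none of which was taken by the naming rule. They are among 9 called members given here, after their values were seen, so that all 26 members called in a comparison appear. Sema3g, a secreted semaphorin, was at -2.87, -2.61 and -3.16 at 9 h, against -3.49, -3.36 and -3.59 at 6 h, a 1.52-fold difference (log2 0.60, SE 0.13, adjusted p = 0.00729). The transmembrane semaphorins Sema4a and Sema6b were 1.45-fold and 1.36-fold higher at 9 h than at 6 h (adjusted p = 0.0258 and 0.00708) and 1.56-fold and 1.41-fold higher than at 0.5 h (adjusted p = 0.00992 and 0.00405). Sema4f differed by 0.30 at 9 h versus 6 h (adjusted p = 0.044). All 4 had probes with 45% to 60% G and C, and after centring the differences of 9 h versus 6 h were 0.29, 0.23, 0.06 and 0.15 for Sema3g, Sema4a, Sema6b and Sema4f, none of them called (adjusted p = 0.15 to 0.782). The Sema6b difference of 9 h versus 0.5 h was then 0.16 and not called either (adjusted p = 0.412), and that of Sema4a was 0.35 (adjusted p = 0.0484). Without any 6 h array or 9 h replicate 2 or 3 the call for Sema4a ended (0.0567 to 0.081), and without any array except 3 h replicates 2 and 3 and 9 h replicate 1 that for Sema4f ended (0.0573 to 0.148).

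The other 13 semaphorins tested were not called as measured. Centred by G and C count, Sema3d was called higher at 3 h versus 0.5 h (log2 0.30, adjusted p = 0.0456). Centring also began calls of Sema3b at 9 h versus 0.5 h and of Sema3f at 9 h versus 6 h. The Sema3b probe had the highest mean signal of the family, with 3.76 to 4.23 over the 12 arrays. Sema6a had a single low reading of -2.39 on 9 h replicate 3, beside -1.11 and -1.17 on the other 9 h arrays. Sema3a, the best studied repellent of sensory axons, was not well above background on all arrays of any time.

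Among the 10 plexins and neuropilins, 1 was higher and 2 lower at 3 h versus 0.5 h, and 2 were higher and 1 lower at 9 h versus 0.5 h. In both directions together these were 30% at each time, beside 22.7% and 33.4% of all genes. No member of this group was called in the other 3 comparisons. Nrp1, a co-receptor for class 3 semaphorins and vascular endothelial growth factor, was at -2.35, -2.48 and -2.25 at 3 h, against -2.04, -1.92 and -1.92 at 0.5 h. It fell by 0.40 (SE 0.09, adjusted p = 0.013), with no overlap of the arrays, and was not called at 6 or 9 h versus 0.5 h.

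Nrp2, the related co-receptor, had scattered readings of -5.06, -5.92 and -3.32 at 0.5 h, where 1 of 3 arrays was well above background. It was at -7.10, -6.91 and -7.05 at 3 h, where 2 of 3 were, and at -6.72, -6.17 and -6.50 at 6 h, and -6.68, -6.49 and -6.22 at 9 h. The fit called it lower at 3 h (log2 -2.26, SE 0.51, adjusted p = 0.012) and at 9 h (log2 -1.70, SE 0.51, adjusted p = 0.0289) against 0.5 h. The value at 9 h was -0.97 without 0.5 h replicate 3 (adjusted p = 0.0213), and that call ended without any 1 of the 9 h arrays (0.051 to 0.0709). Part of the readings behind both sizes were not well above background, and both calls ended with a common detection floor.

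Plxna4a, now named Plxna4, encodes a plexin that serves class 3 and class 6 semaphorins. It was at -6.98, -6.10 and -6.94 at 0.5 h, where no array was well above background, and at -5.63, -6.13 and -5.66 at 3 h, -6.01, -5.84 and -6.10 at 6 h, and -5.45, -5.44 and -6.05 at 9 h. It was called higher at 3 h (adjusted p = 0.0359) and 9 h (adjusted p = 0.013) against 0.5 h, with overlap of the arrays at 3 h, and both bounds were under 1. The call at 3 h ended without 0.5 h replicate 1 or 3, 3 h replicate 1 or 3, or 6 h replicate 1 or 3 (0.05 to 0.112) and turned under normexp, to -0.17. Plxnb3, a receptor of class 5 semaphorins, was 1.26-fold higher at 9 h than at 0.5 h (log2 0.33, SE 0.10, adjusted p = 0.0326). That call ended without 0.5 h replicate 2 or 3 or 9 h replicate 1 or 2 (0.0569 to 0.109) and with G and C centring (log2 0.21, adjusted p = 0.138). The Plxnd1 probe, with the highest mean signal of the group, was at 2.65 to 3.03 over the 12 arrays.

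**Figure D5:**
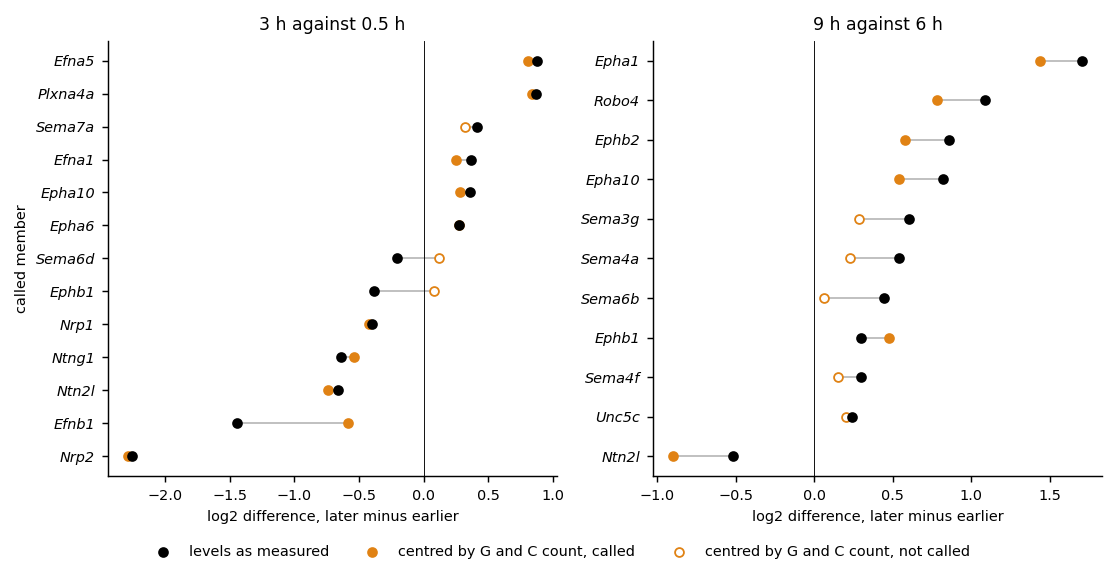
Log2 difference (x, later minus earlier) of each called member (rows) at 3 h versus 0.5 h and at 9 h versus 6 h, from levels as measured (black) and from levels centred within bins of probe G and C count (orange, open where not called). Efnb1 moves from -1.44 to -0.58 and stays below 0 at 3 h, Sema6d and Ephb1 cross 0 there, and Sema6b moves closest to 0 in the panel of 9 h versus 6 h.

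Other probes of the called members gave a further reading. At 3 h versus 0.5 h the called members had 4 other kept probes, 3 with the same sign and 0 called by limma in either direction. At 9 h versus 6 h there were also 4, 3 with the same sign and 2 called the same way. For 6 h versus 0.5 h, 9 h versus 0.5 h and 6 h versus 3 h there were 2, 3 and 3. Of these, 2, 3 and 2 had the same sign, and 0, 1 and 0 were called the same way. In no comparison was another probe called in the opposite direction.

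Scaling and detection ended further calls. With median scaling, 12 of the 51 calls ended, among them those of Ephb1 and Sema6d at 3 h versus 0.5 h, of Efna3, Plxnb3 and Unc5c at 9 h versus 0.5 h, and of Sema4a, Sema6b, Sema4f, Ephb1 and Unc5c at 9 h versus 6 h. Quantile scaling and cyclic loess each ended 7, and both ended those of Sema4a at 9 h versus 0.5 h and versus 6 h and of Sema3g at 9 h versus 6 h. With 1 common detection floor for all arrays 13 ended, including all calls of Efna5, Epha1, Nrp2 and Plxna4a. In fits of only the arrays compared 15 ended, and with 1 of the 12 arrays left out 3 to 11 ended.

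Beside the members, 72 further genes of guidance pathways were listed, and 65 of them could be tested. The list holds genes for proteins that carry signals to the actin cytoskeleton and microtubules. It also holds other ligands, receptors and adhesion molecules, among them Rgma, Neo1 and Dscam. At 3 h versus 0.5 h, 10 were higher and 6 lower, at 6 h 4 and 2, and at 9 h 13 and 9. At 6 h versus 3 h 4 were higher and 2 lower, and at 9 h versus 6 h 4 and 5. In both directions together these were 24.6%, 9.23% and 33.8% of the listed genes at 3, 6 and 9 h versus 0.5 h, beside 22.7%, 13.4% and 33.4% of all genes. They were 9.23% at 6 h versus 3 h and 13.8% at 9 h versus 6 h, beside 10.4% and 25.1%. The list's median difference was 0.05, 0.00 and 0.08 at 3, 6 and 9 h versus 0.5 h, beside 0.02, -0.04 and 0.10 for all genes. With G and C centring 15 of the 65 listed genes, not 9, were called at 9 h versus 6 h, beside 25.5% of all genes. With median scaling it was 20 of the 65, beside 32.5% of all genes. Under the alternatives only such counts were made for the list. The genes of the list named below thus have no G and C centred values and none with an array left out. The composition of their probes is not given either, and its part in their differences was not tested.

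Tiam1, an exchange factor that activates the GTPase Rac, was 0.448 times its 0.5 h level at 3 h (log2 -1.16, SE 0.12, adjusted p = 0.000175). It was 0.676 times that level at 6 h (adjusted p = 0.0142) and 0.442 times at 9 h (log2 -1.18, SE 0.12, adjusted p = 0.000149). Tiam1 was 1.51-fold higher at 6 h than at 3 h (adjusted p = 0.0113), and 0.653 times its 6 h level at 9 h (adjusted p = 0.00364). Rnd1, an atypical GTPase that binds plexins, fell by 0.66 at 3 h (adjusted p = 0.00225) and was 1.37-fold higher at 6 h than at 3 h (adjusted p = 0.0236). Farp2, a plexin-bound exchange factor, and Cdk5, a kinase in semaphorin signalling, rose 1.43-fold and 1.41-fold at 3 h versus 0.5 h (adjusted p = 0.00557 and 0.00309). Rac1 itself and the actin-severing protein Cfl1 rose 1.24-fold and 1.30-fold at 6 h versus 0.5 h (adjusted p = 0.00717 and 0.00853). Nck2 was 0.689 times and Ablim3 1.29 times its 0.5 h level at 3 h (adjusted p = 0.0166 and 0.00873). Enah was 0.784 times and Nfatc4 1.60 times its 3 h level at 6 h (adjusted p = 0.0299 and 0.0233).

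At 9 h the integrin subunit Itgb1 was 1.41-fold higher than at 0.5 h (adjusted p = 0.00101), and the kinase genes Rock1 and Gsk3b were 0.735 and 0.708 times their 0.5 h levels (adjusted p = 0.0036 and 0.0228). Neo1, which encodes neogenin, a receptor for netrins and for repulsive guidance molecules, was 1.62-fold higher at 9 h than at 6 h (log2 0.70, SE 0.10, adjusted p = 0.000744). Rgma, a ligand of neogenin, was called higher at 9 h than at 0.5 h (adjusted p = 0.0103), a time at which none of the arrays had detected it. Dpysl3, a collapsin response mediator, was 0.716 times its 0.5 h level at 6 h (adjusted p = 0.0253) and 0.70 times its 3 h level (adjusted p = 0.0215). Gnai1 and Gnai2 were 0.717 and 0.745 times their 6 h levels at 9 h (adjusted p = 0.0213 and 0.00144). Limk1 and Farp1 were 1.29-fold and 1.37-fold higher at 9 h than at 6 h (adjusted p = 0.0218 and 0.0395). Farp1 was also 1.38-fold higher at 9 h than at 0.5 h (adjusted p = 0.0298).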

How the data were processed

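Total RNA was extracted with Trizol, purified on RNeasy columns, amplified with a low-input kit and labelled with Cy3 for arrays of 1 colour, per the labels' protocols. The deposited intensity of each spot is Agilent Feature Extraction 10.5.1.1's background-subtracted signal on a linear scale, per the file headers, and a table of the whole series holds the same intensities. From these, 76 to 218 outlier spots per array and 1639 control spots of 45018 were dropped, spots of a probe were averaged, and log2 values were set against each array's 75th percentile. Of 41012 probes, 34842 were kept, those that all arrays of 1 or more times detected well above background, and the probe with the highest mean stood for its gene. limma 3.58.1 in R 4.3.3 fitted the 4 times together over all 29627 genes, with an F test over the times and Benjamini-Hochberg adjustment over all genes at 0.05.

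Slides numbered 5, and scanning took 3 days for the 12 arrays: 0.5 h on 1 slide and day, 9 h on another slide and day, 3 h on 1 slide and 6 h on a further pair, scanned on the same day. No slide held more than 1 time, so slide and time cannot be told apart in any comparison. Scan day and time cannot be told apart in any comparison with 0.5 or 9 h.

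The members and gene lists were chosen with earlier results of these data known. Members were named with values if they were among the 4 largest called differences each way of a comparison without overlap of the arrays, had 1 of the 10 smallest F p-values, or had the highest mean signal of their family. The listed further pathway genes were named if among the 3 largest called each way. The script was tested on simulated data. Alternatives were another scaling (median, quantile, cyclic loess), normexp background correction (offset 50), other filters and probe rules, a variance trend, blocks for slide or replicate number, fits of only the arrays compared, a detection floor and each array left out. Centring by probe G and C count was added after seeing the data. Symbols and current names come from RefSeq's gene table.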

Additional observations from a re-analysis of the deposited data

How the results depend on the processing

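The processing changed how many members were called. The counts as reported were 13 at 3 h versus 0.5 h, 3 at 6 h versus 0.5 h, 15 at 9 h versus 0.5 h, 9 at 6 h versus 3 h, 11 at 9 h versus 6 h and 24 over all times. Under normexp these counts were 2, 0, 0, 2, 0 and 3, and with slide as a random block, whose estimated correlation was -0.26, they were 27, 16, 37, 15, 21 and 44. The calls of all genes moved likewise. Of all genes, normexp called 2.31%, 0.00338%, 1.43%, 1.07%, 0.55% and 2.29% in that order. The slide block called 46.7%, 30.6%, 57%, 26.8%, 42.2% and 73.5%, and the fit as reported 22.7%, 13.4%, 33.4%, 10.4%, 25.1% and 43.6%. For 6 h versus 0.5 h, the count was 7 with median scaling, 6 with quantile scaling, 9 with cyclic loess, 5 with no filter, 5 with the mean of all kept probes, 5 with G and C bins and 6 with single G and C counts. In that order, these settings called 13.8%, 13.2%, 22%, 25.5%, 12.9%, 14.8% and 14.8% of all genes. The fit of only the arrays compared gave 8 for 3 h versus 0.5 h (15.1% of all genes), and G and C bins gave 5 for 6 h versus 3 h (8.89% of all genes). Leaving out each array in turn gave 8 to 15, 2 to 5, 13 to 19, 3 to 9, 7 to 13 and 17 to 22 calls in the order above. Directions turned under normexp for Plxna4a at 3 h versus 0.5 h (-0.17), Nrp2 at 9 h versus 0.5 h (0.12), and Epha1 (0.72), Epha10 (0.14) and Unc5d (0.44) at 6 h versus 3 h. They turned with the mean of probes for Sema6d (0.051 at 3 h versus 0.5 h, -0.053 at 6 h versus 3 h). At 3 h versus 0.5 h they turned with G and C bins for Ephb1 (0.076) and Sema6d (0.12) and with single G and C counts for Ephb1 (0.066) and Sema6d (0.079). Epha1 at 6 h versus 0.5 h, not called in the fit as reported, was 1.44 with quantile scaling and 0.58 with cyclic loess. The cause of these changes was not tested. The G and C settings were chosen after seeing the data. Of the 51 calls, 12 ended only under normexp. With a replicate block the counts were 12, 4, 16, 8, 9 and 21. That block ended 7 of the 51 calls. Arrays with the same number deviated together weakly (r = -0.13 to 0.22, over 0.1 in 3 of 18 pairs). Whether such arrays share rats or handling is not stated, and correlations this weak over so few arrays cannot decide it. At low signal the 0.5 h arrays, with fewer spots above background, limit the folds of 13 members.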
